A study of Mus musculus with 6 samples.

Results

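The 31 genes described here encode the enzymes and regulators of cholesterol and fatty acid synthesis. They were chosen by name from the 54532 genes listed for 6 colon tumors, and all 31 had a mean level of at least 0.5 FPKM (fragments counted per kilobase of gene, scaled to library size), the limit above which 16426 genes were tested. They comprised 7 genes of the mevalonate pathway, 10 of squalene synthesis and the steps from squalene to cholesterol, and 5 regulators. The others were 3 genes of fatty acid synthesis, 5 of elongation and desaturation, and the sterol carrier gene Stard4.

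The tumors came from mice given azoxymethane (AOM), a carcinogen, and dextran sodium sulfate (DSS), which injures the colonic epithelium. Tamoxifen (TAM) was given to both groups after 3 cycles of AOM/DSS, once tumors were present. The 3 Tmem173fl/fl mice carried loxP-flanked Tmem173, the gene encoding STING, and no Cre, and the 3 Tmem173iΔmye mice (Tmem173fl/fl Lzym-Creert2 in the labels) also carried a TAM-activated Cre driven by the Lyz2 gene, which is active in myeloid cells. The mice were on a C57BL/6N background, and the ages stated for TAM in the study's methods are not given for this late schedule. The comparison asked what loss of myeloid STING after tumor formation did to gene expression in whole tumor RNA. In such RNA, fewer cells of a type and less RNA per cell cannot be told apart.

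Cells make cholesterol from acetyl-CoA through mevalonate, farnesyl pyrophosphate and squalene, and make fatty acids from acetyl-CoA through malonyl-CoA. The transcription factors SREBP-1 and SREBP-2 drive the genes of these pathways. SCAP carries them from the endoplasmic reticulum to the Golgi for cleavage when sterols are low, and INSIG proteins hold SCAP back when sterols are high. The intestinal epithelium is among the tissues that make much of their own cholesterol, and dividing cells draw on both pathways for membranes.

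Totals of reads on genes ran from 15329810 to 16533732, and the lowest count of any of the 31 genes in a tumor was 133. Epithelial markers were high in every tumor, with summed levels of 7 genes from 5580 to 6840 FPKM, and 6 fibroblast markers summed to 208 to 318 FPKM and 5 smooth muscle markers to 88.1 to 149 FPKM. Of 8 adipocyte markers, Adipoq, Plin1 and Lep were listed at 0 in every tumor, and the 8 together summed to at most 3.4 FPKM. Tmem173 itself did not separate the groups, at 48.6, 84.5 and 44.2 FPKM in replicates 1, 2 and 3 of Tmem173fl/fl and 62.7, 61.0 and 53.7 FPKM in Tmem173iΔmye tumors. A count over the whole gene in a mixed tumor is no check of the deletion in myeloid cells. The summed counts of 4 Y-linked genes were 2655 to 3547 in 1 Tmem173fl/fl tumor (replicate 1) and 2 Tmem173iΔmye tumors (1 and 2), and no more than 2 in the rest, so the sexes of the mice were not balanced between the groups.

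The levels of the 31 genes spanned a wide range, as the plot of levels by tumor shows. On the FPKM scale, which accounts for gene length, Scd2 was the highest in every tumor at 317 to 537 FPKM, and Fdps was the lowest at 1.98 to 3.0 FPKM. Scd2 encodes a stearoyl-CoA desaturase, and Fdps encodes the synthase of farnesyl pyrophosphate. Within a gene, the highest tumor was 1.26 to 2.31 times the lowest, with a median of 1.61 times over the 31 genes. That median was 1.52 times for the 17 mevalonate and sterol genes and 2.02 times for the 8 fatty acid genes. On the log2 scale, the median SD of a gene within a group was 0.228 for the 31 genes and 0.272 for the 15850 tested genes with no value of 0. Among the 8 fatty acid genes the SD ran from 0.198 for Acly to 0.464 for Scd1.

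**Figure D1:**
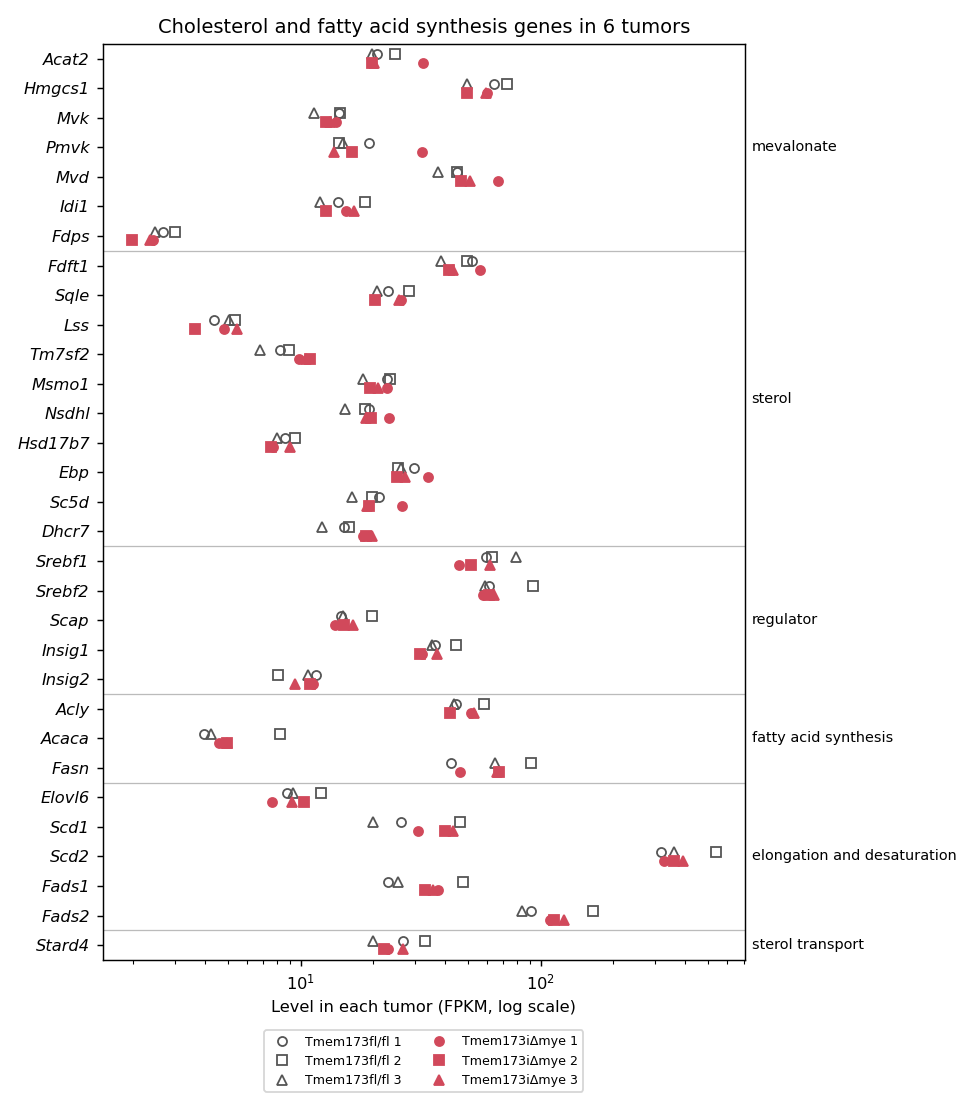
Level of each of the 31 genes in each of the 6 tumors, in FPKM on a log axis, with genes grouped by role. Open grey symbols are the 3 Tmem173fl/fl tumors and filled red symbols the 3 Tmem173iΔmye tumors. Scd2 sits farthest to the right (317 to 537 FPKM) and Fdps farthest to the left (1.98 to 3.0 FPKM), and the symbols of the groups overlap for 27 of the 31 genes.

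No gene of the 31 passed the test between Tmem173iΔmye and Tmem173fl/fl tumors. By edgeR's quasi-likelihood test, 0 of 31 had an adjusted p under 0.05 (0% of the 16426 genes tested), and 0 of 31 did so by DESeq2, which called 28 of all genes, or by limma voom, which called 0. At an unadjusted p under 0.05, 2 of 31 were called (6.45%), against 6.14% of all genes tested, a share near the background. Both, Tm7sf2 and Dhcr7, were higher in Tmem173iΔmye tumors. Of all genes tested, 3.23% were both higher there and at an unadjusted p under 0.05. DESeq2 and limma voom each called 2 of the 31 as well. With a log2 fold change of 1 or more in either direction required as well, 0 of 31 were left, against 2.12% of all genes. The groups did not overlap for 4 of 31 genes (12.9%), against 12.5% of all genes tested.

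The differences were small in both directions. The log2 fold change of Tmem173iΔmye over Tmem173fl/fl ranged from -0.34 for Srebf1 to 0.39 for Tm7sf2, and its median was -0.0046 for the 31 genes and -0.0042 for all genes tested. It was above 0 for 13 of 31 genes and for 49.4% of all genes tested. For 30 of 31 genes the unadjusted 95% interval of the log2 fold change lay between -1 and 1. The exception was Pmvk, whose interval ran from -0.38 to 1.08. The plot of fold changes shows these intervals by role.

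**Figure D2:**
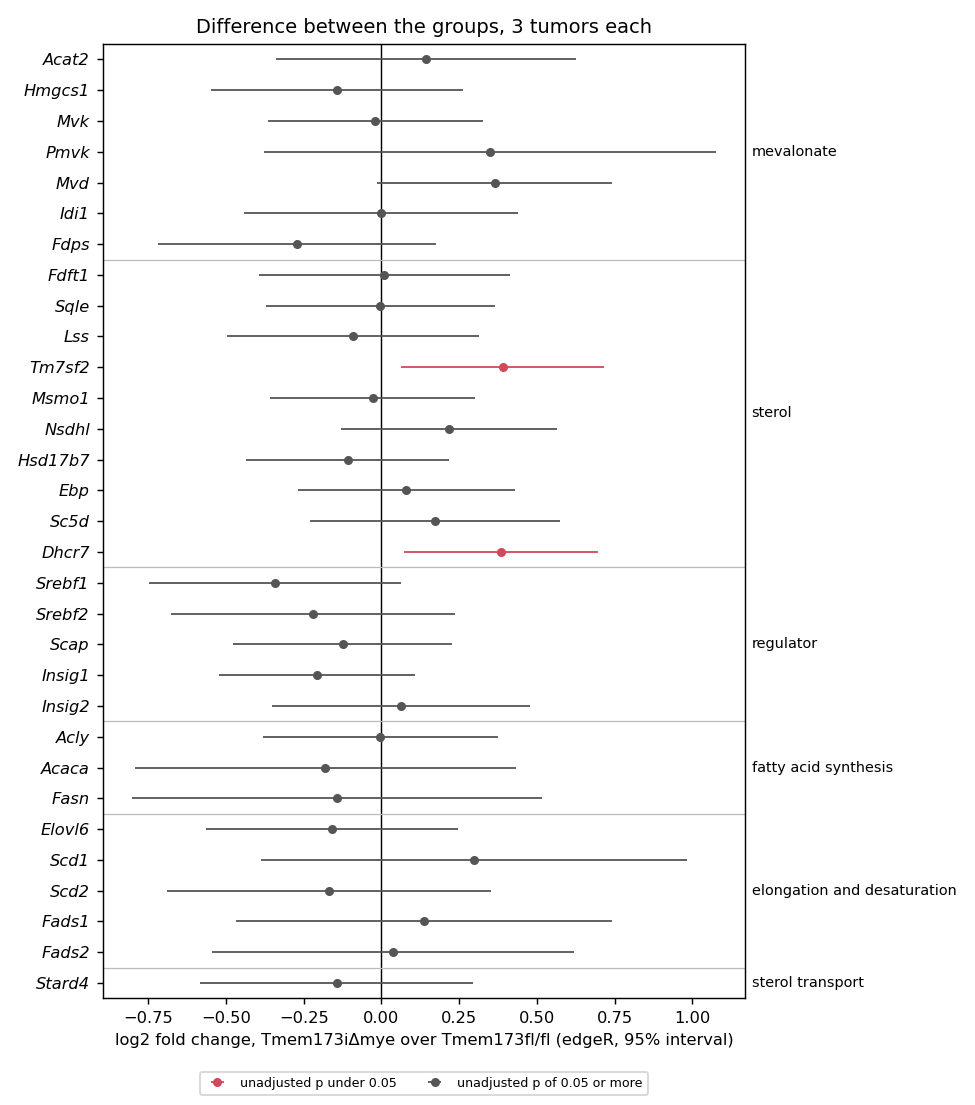
Log2 fold change of each gene for Tmem173iΔmye over Tmem173fl/fl tumors (points) with its 95% interval (lines) from edgeR, 3 tumors per group, grouped by role. The intervals of Tm7sf2 and Dhcr7 (red, unadjusted p under 0.05) lie above 0 and those of the other 29 genes include 0.

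The upstream windows of these genes, which SREBP-2 and its partners are known to bind at several of them, are given for the gene with the sterol regulatory element letters and for the genes lowest in p in the mevalonate and sterol groups. RefSeq windows on GRCm38.p6, from 250 bases before a start site to 50 after it, were found for 24 of the 31 genes, and none was found for Fdps, Fdft1, Sqle, Scd1, Scd2, Fads1 and Stard4. On both strands, 4 motifs were searched, each counted on its own. They were the sterol regulatory element TCACNCCAC, the CCAAT box CCAAT bound by NF-Y, the GC box GGGCGG bound by Sp1 and the E-box CACGTG. Capitals mark the matches, which read reversed and complemented where they lie on the other strand, and no printed match overlaps another.
Hmgcs1, chr13:119690101-119690400, plus strand: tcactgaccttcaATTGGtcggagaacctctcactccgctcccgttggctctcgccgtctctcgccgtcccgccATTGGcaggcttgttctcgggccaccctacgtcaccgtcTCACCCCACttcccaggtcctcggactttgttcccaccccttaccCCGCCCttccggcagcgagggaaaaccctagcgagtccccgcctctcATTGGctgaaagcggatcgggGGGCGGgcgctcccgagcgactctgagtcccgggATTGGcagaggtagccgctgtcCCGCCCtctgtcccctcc
Mvd, chr8:122443373-122443672, minus strand: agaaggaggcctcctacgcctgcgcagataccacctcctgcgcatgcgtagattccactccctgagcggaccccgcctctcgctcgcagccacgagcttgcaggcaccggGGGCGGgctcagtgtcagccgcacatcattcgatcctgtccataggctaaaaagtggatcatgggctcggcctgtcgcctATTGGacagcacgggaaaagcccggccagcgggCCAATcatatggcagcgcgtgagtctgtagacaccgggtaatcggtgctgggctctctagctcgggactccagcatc
Dhcr7, chr7:143829964-143830263, plus strand: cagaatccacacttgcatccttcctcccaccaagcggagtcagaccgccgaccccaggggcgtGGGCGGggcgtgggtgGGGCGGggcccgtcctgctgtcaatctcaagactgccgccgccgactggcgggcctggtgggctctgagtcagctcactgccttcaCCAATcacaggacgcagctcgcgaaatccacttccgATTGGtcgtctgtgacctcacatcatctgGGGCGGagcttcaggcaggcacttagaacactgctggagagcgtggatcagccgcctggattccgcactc
Tm7sf2, chr19:6067801-6068100, minus strand: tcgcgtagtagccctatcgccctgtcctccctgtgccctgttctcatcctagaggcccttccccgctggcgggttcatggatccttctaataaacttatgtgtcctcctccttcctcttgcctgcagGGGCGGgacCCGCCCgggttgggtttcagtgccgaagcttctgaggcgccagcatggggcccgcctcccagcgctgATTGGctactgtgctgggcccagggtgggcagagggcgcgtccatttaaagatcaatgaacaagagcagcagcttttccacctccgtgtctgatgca

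Hmgcs1 was the only gene of the 24 with the sterol regulatory element letters, 114 bases into its window, which also held 4 CCAAT boxes and 3 GC boxes. That is 4.17% of the 24 genes, against 1.44% of the 27025 genes with a window. A CCAAT box was found for 19 of 24 genes (79.2%) and 41.1% of all genes, and a GC box for 20 of 24 (83.3%) and 38.2%. An E-box was found for 5 of 24 (20.8%), against 8.09% of all genes. These shares are not like for like. The 24 genes were all expressed here, whereas the 27025 include genes that were not. A gene also counts if any of its windows matches, and the number of windows differs between genes. Mvd, Dhcr7 and Tm7sf2 each held CCAAT and GC boxes in the windows printed. Dhcr7 has 2 further windows, with 1 GC box in the first and 1 E-box in the second. The Dhcr7 window printed is the one with the most matches, 5, and lies inside the span of the gene. That span starts at 143823145, and the first of the windows not printed (143822917 to 143823216) covers this start. Of 2 further genes, Srebf1 held CCAAT or GC boxes in each of its 3 windows and the single window of Acaca, the gene of acetyl-CoA carboxylase, held none of the 4 motifs. That window (chr11:84195188-84195487) lies inside the span of Acaca, which starts at 84129672 on the plus strand. The start of the gene's span was therefore not searched. Tm7sf2 was chosen for printing after its values were seen. These matches are letters in a window, and no binding was measured here.

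In the mevalonate pathway, no gene of 7 had an unadjusted p under 0.05, and the median log2 fold change was -0.0019. Hmgcs1 encodes HMG-CoA synthase, an early enzyme of the pathway. It had 64.0, 72.7 and 49.1 FPKM in Tmem173fl/fl and 59.9, 49.4 and 59.0 FPKM in Tmem173iΔmye tumors. The groups overlapped, with Tmem173fl/fl replicate 2 the highest and replicate 3 of the same group the lowest (log2 fold change -0.14, SE 0.17, unadjusted p = 0.435 and adjusted p = 0.842 from edgeR). Without those tumors in turn the log2 fold change was -0.020 and -0.28, and it was -0.062 without Tmem173iΔmye replicate 2.

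Mvd (chromosome 8, 122433601 to 122443422 of GRCm38, minus strand) encodes the decarboxylase that yields isopentenyl pyrophosphate. It had 44.7, 44.7 and 37.5 FPKM in Tmem173fl/fl tumors and 66.3, 46.4 and 50.9 FPKM in Tmem173iΔmye tumors. Each Tmem173iΔmye tumor was above each Tmem173fl/fl tumor, replicate 2 only slightly so. For Mvd the log2 fold change was 0.37 (SE 0.16, unadjusted p = 0.0566 and adjusted p = 0.742 from edgeR). The unadjusted p fell under 0.05 in 4 of 17 alternatives, among them the fit without Tmem173iΔmye replicate 2 (log2 fold change 0.47, unadjusted p = 0.036 from edgeR). Its fold change was smaller on the log2 scale, at 0.20, without Tmem173iΔmye replicate 1 (unadjusted p = 0.195 from edgeR) and 0.29 without Tmem173fl/fl replicate 3 (unadjusted p = 0.166 from edgeR).

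Pmvk, the phosphomevalonate kinase that acts just before Mvd, had 19.2, 14.4 and 15 FPKM in Tmem173fl/fl and 31.9, 16.4 and 13.8 FPKM in Tmem173iΔmye tumors. Tmem173iΔmye replicate 1 stood above the rest, and the others overlapped. For Pmvk the log2 fold change was 0.35 (SE 0.31, unadjusted p = 0.300 and adjusted p = 0.791 from edgeR), and it was -0.10 without Tmem173iΔmye replicate 1 (unadjusted p = 0.618 from edgeR).

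Fdps (chromosome 3, 89093588 to 89101959, minus strand) had 2.68, 3.0 and 2.48 FPKM in Tmem173fl/fl and 2.44, 1.98 and 2.35 FPKM in Tmem173iΔmye tumors. Here each Tmem173iΔmye tumor was the lower, by a narrow gap (log2 fold change -0.27, SE 0.19, unadjusted p = 0.196 and adjusted p = 0.757 from edgeR). Fdps shares 1124 exon bases, 26.7% of its exons in GENCODE M21, with the overlapping Gm43738 on the same strand, which had at most 2 counts in any tumor. How reads in shared exons were counted is not given in the sources used here, and the level of Fdps is therefore uncertain.

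The other mevalonate genes overlapped between the groups. Acat2, whose product joins acetyl-CoA units, ranged from 19.9 to 32.2 FPKM, with the highest value again in Tmem173iΔmye replicate 1. Mvk, the mevalonate kinase gene, ranged from 11.4 to 14.6 FPKM, and Idi1, the isopentenyl diphosphate isomerase gene, from 12 to 18.6 FPKM. Their log2 fold changes were 0.14, -0.020 and -0.0019.

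Of the 10 genes of squalene synthesis and the steps from squalene to cholesterol, 2 had an unadjusted p under 0.05 (20.0%, against 6.14% of all genes tested). The log2 fold change was positive for 6 of the 10, against 49.4% of all genes tested, at a median of 0.044. Sqle encodes squalene epoxidase, a rate-limiting enzyme of the later pathway. It had 23.1, 28.4 and 20.9 FPKM in Tmem173fl/fl and 26.1, 20.5 and 25.6 FPKM in Tmem173iΔmye tumors, and both groups had a mean of 24.1 FPKM. The log2 fold change was -0.0034 (SE 0.16, unadjusted p = 0.983 and adjusted p = 1 from edgeR), with a 95% interval from -0.37 to 0.37.

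Dhcr7 (chromosome 7, 143823145 to 143848410, plus strand) encodes 7-dehydrocholesterol reductase, which makes cholesterol from its immediate precursor. It had 15.2, 15.9 and 12.3 FPKM in Tmem173fl/fl and 18.2, 18.7 and 19.9 FPKM in Tmem173iΔmye tumors. Each Tmem173iΔmye tumor was above each Tmem173fl/fl tumor, and Tmem173fl/fl replicate 3 was the lowest. The log2 fold change was 0.38 (SE 0.13), 1.31 times higher in Tmem173iΔmye tumors, with an unadjusted p of 0.0218 and an adjusted p of 0.742 from edgeR. Without Tmem173fl/fl replicate 3, Tmem173iΔmye replicate 2 or Tmem173iΔmye replicate 3, the log2 fold change was 0.28, 0.39 and 0.35 and the unadjusted p rose to 0.0718, 0.0563 and 0.0768.

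Tm7sf2 encodes a sterol C14-reductase that follows lanosterol demethylation. It had 8.17, 8.93 and 6.80 FPKM in Tmem173fl/fl and 9.86, 10.9 and 10.5 FPKM in Tmem173iΔmye tumors. The groups did not overlap, and Tmem173fl/fl replicate 3 was again the lowest. The log2 fold change was 0.39 (SE 0.14), also 1.31 times higher in Tmem173iΔmye tumors, with an unadjusted p of 0.0256 and an adjusted p of 0.742 from edgeR. It was 0.29, 0.35 and 0.38 without the same tumors in the same order, and the unadjusted p was then 0.0853, 0.0875 and 0.0729. The deposited table gives Tm7sf2 a span of 19:6062821 to 6077197 and a length of 5593 bases, against an end at 6068373 and 4403 exon bases in GENCODE M21. Its exons share 12.1% of their bases with Vps51 on the same strand, which was at a mean of 1.27 FPKM. The FPKM of Tm7sf2 rests on the longer length, and how reads in the shared bases were counted is not given in the sources used here.

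None of the 7 epithelial markers passed the test. Their log2 fold changes were positive for 7 of 7, at a median of 0.092, from 0.037 for Krt8 to 0.35 for the villin gene Vil1 (unadjusted p = 0.83 and 0.0495, and adjusted p = 0.962 and 0.742, from edgeR). Their summed level was 5580 to 6070 FPKM in Tmem173fl/fl and 5880 to 6840 FPKM in Tmem173iΔmye tumors, with overlap, and their part in the values of Dhcr7 and Tm7sf2 was not tested.

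**Figure D3:**
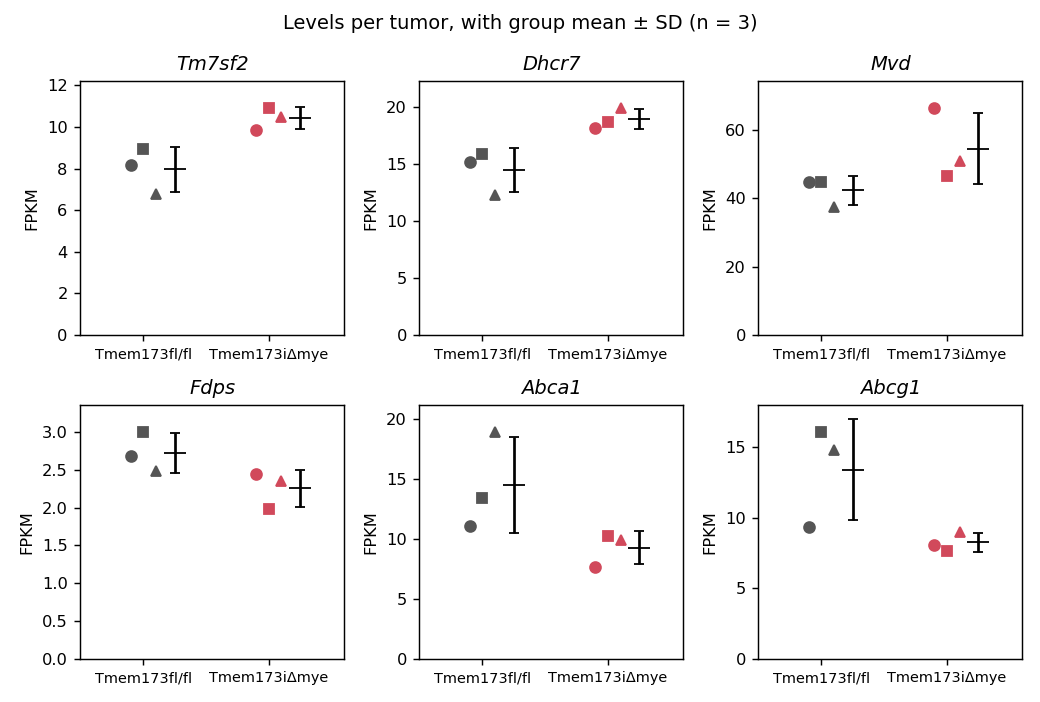
FPKM in each tumor (points, with the symbol giving the replicate number) for the 4 genes whose groups did not overlap and for the cholesterol efflux transporters Abca1 and Abcg1, with the mean and SD of 3 tumors beside each group (bars) and axes from 0. Tm7sf2, Dhcr7 and Mvd lie higher and Fdps, Abca1 and Abcg1 lower in Tmem173iΔmye tumors, with narrow gaps between the nearest tumors.

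The other 8 genes of this arm overlapped between the groups in FPKM. Fdft1, the squalene synthase gene, ranged from 38.4 to 55.9 FPKM, and 18.3% of its exon bases lie opposite Ctsb, whose mean was 110 FPKM. Without strand information, which the sources used here do not give, reads of the pair cannot be told apart in those bases. Hmgcs1, Idi1, Lss and Scap share 3.53% to 13.2% of their exon bases with genes on the opposite strand, each at a mean of at most 0.255 FPKM. Lss, which closes the ring to lanosterol, was at 3.62 to 5.43 FPKM, and Hsd17b7, a ketosterol reductase gene, at 7.51 to 9.49 FPKM. Msmo1 and Nsdhl, which remove the C4 methyl groups, ranged from 18.2 to 23.5 and from 15.3 to 23.4 FPKM. Ebp, the sterol isomerase gene, ranged from 25.1 to 33.9 FPKM, and Sc5d, the desaturase gene, from 16.3 to 26.4 FPKM. In Fdft1, Nsdhl, Ebp and Sc5d the highest tumor was Tmem173iΔmye replicate 1.

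Of the 5 regulators, the log2 fold change was negative for 4, at a median of -0.21, and 0 of 5 had an unadjusted p under 0.05 from edgeR. Srebf1, which encodes SREBP-1, had 59.3, 62.7 and 79.0 FPKM in Tmem173fl/fl and 45.8, 51.3 and 61.5 FPKM in Tmem173iΔmye tumors. The groups overlapped only through Tmem173iΔmye replicate 3, which lay between Tmem173fl/fl replicates 1 and 2 (log2 fold change -0.34, SE 0.17, unadjusted p = 0.0859 and adjusted p = 0.742 from edgeR). Without Tmem173fl/fl replicate 3, the highest tumor, the log2 fold change was -0.20 (unadjusted p = 0.297 from edgeR). With the whole gene counted, the isoforms SREBP-1a and SREBP-1c were not separated.

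Srebf2, the gene of SREBP-2, the main driver of sterol synthesis genes, had 61.2, 92.6 and 58.7 FPKM in Tmem173fl/fl and 57.5, 61.0 and 63.8 FPKM in Tmem173iΔmye tumors. Tmem173fl/fl replicate 2 stood above the rest, and the other 5 tumors lay close together. For Srebf2 the log2 fold change was -0.22 (SE 0.20, unadjusted p = 0.296 and adjusted p = 0.788 from edgeR), and it was 0.012 without that tumor (unadjusted p = 0.927 from edgeR).

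Insig1, which is itself a target of SREBPs, had 36.3, 44.2 and 35.2 FPKM in Tmem173fl/fl and 32.0, 31.4 and 36.9 FPKM in Tmem173iΔmye tumors, with overlap (log2 fold change -0.21, SE 0.14, unadjusted p = 0.167 and adjusted p = 0.756 from edgeR). Without Tmem173fl/fl replicate 2 it was -0.11. Scap was highest in Tmem173fl/fl replicate 2 as well, with a range of 13.9 to 19.9 FPKM. Insig2 had its lowest value in that tumor, at 8.03 FPKM against 9.48 to 11.6 FPKM in the others.

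The fatty acid genes, 3 of synthesis and 5 of elongation and desaturation, shared the tumor in which they were highest. All 8 were highest in Tmem173fl/fl replicate 2, whereas 26.6% of all genes tested were highest there and 27.1% lowest. Of all 31 genes, 18 (58.1%) were highest in that tumor. Relative to each gene's mean over the 6 tumors, the median log2 level of the 8 genes was 0.517 in that tumor and -0.30, -0.19, -0.116, 0.020 and 0.113 in Tmem173fl/fl replicates 1 and 3 and Tmem173iΔmye replicates 1, 2 and 3. Their summed level was 965 FPKM in that tumor and 557 to 726 FPKM in the other 5, most of it from Scd2. Among further genes of fatty acid supply, elongation and desaturation that were tested, Elovl5 and Elovl7 were also highest in Tmem173fl/fl replicate 2. Slc25a1 and Acacb were lowest there, at 56.8 and 1.06 FPKM, and Acss2, Me1, Elovl1 and Scd3 were highest in Tmem173iΔmye tumors.

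**Figure D4:**
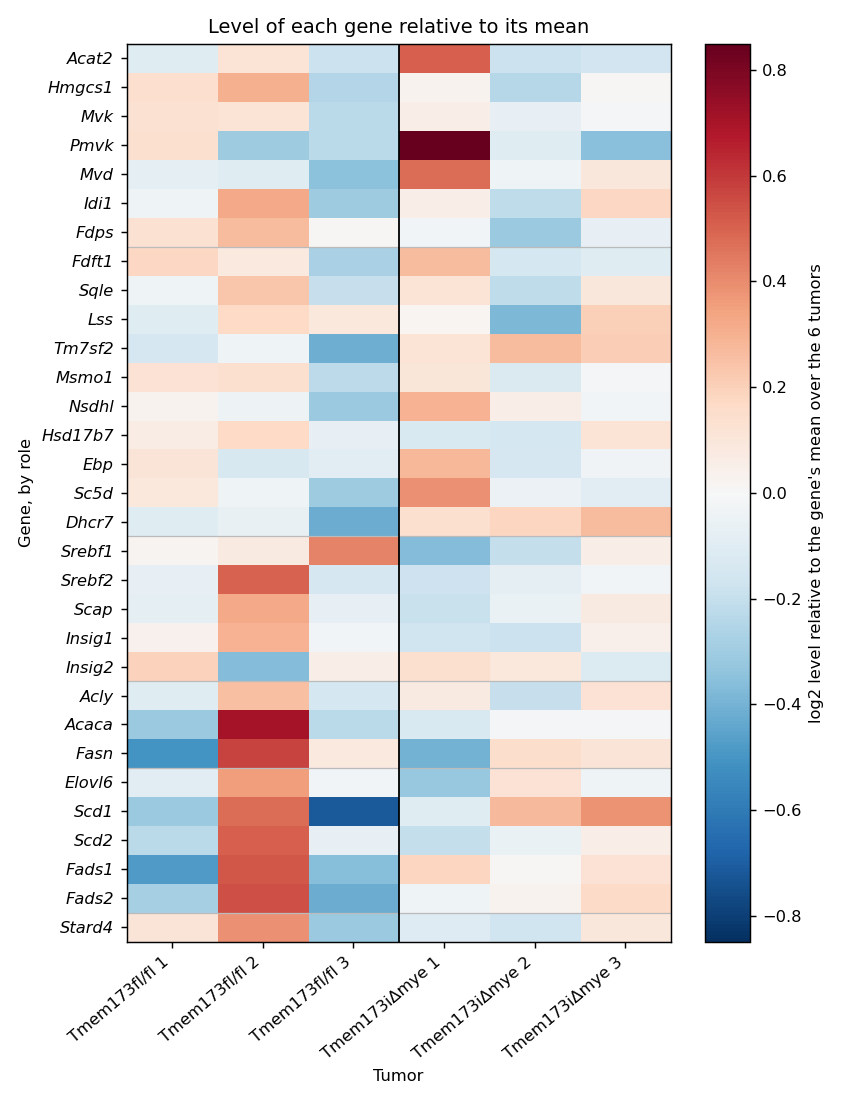
Log2 level of each of the 31 genes in each tumor relative to the gene's mean over the 6 tumors (red above, blue below), with genes in rows by role and a line between the groups. The column of Tmem173fl/fl replicate 2 is red for all 8 fatty acid genes (median 0.517), and the strongest single value is Pmvk in Tmem173iΔmye replicate 1 (0.85).

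Fasn encodes fatty acid synthase, which builds palmitate. It had 42.5, 91.2 and 64.4 FPKM in Tmem173fl/fl and 46.2, 67.3 and 65.6 FPKM in Tmem173iΔmye tumors. Replicate 1 was the lowest in each group, and the groups overlapped (log2 fold change -0.14, SE 0.28, unadjusted p = 0.629 and adjusted p = 0.908 from edgeR). Acaca, the gene of the rate-limiting acetyl-CoA carboxylase, had 3.96, 8.19 and 4.24 FPKM in Tmem173fl/fl and 4.57, 4.94 and 4.93 FPKM in Tmem173iΔmye tumors. Its Tmem173fl/fl replicate 2 was far above the rest, and the log2 fold change turned from -0.18 (SE 0.26, unadjusted p = 0.514 and adjusted p = 0.873 from edgeR) to 0.22 without that tumor (unadjusted p = 0.0812 from edgeR). Acly, whose product supplies cytosolic acetyl-CoA from citrate, ranged from 42.1 to 58.1 FPKM.

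Scd1 encodes the stearoyl-CoA desaturase that makes oleate. It had 26.2, 46.2 and 20.1 FPKM in Tmem173fl/fl and 30.8, 39.8 and 43.0 FPKM in Tmem173iΔmye tumors. The Tmem173fl/fl tumors held both the highest and the lowest value, so the groups overlapped (log2 fold change 0.30, SE 0.30, unadjusted p = 0.344 and adjusted p = 0.810 from edgeR). Without Tmem173fl/fl replicate 3 it was 0.071. Scd2 had 317, 537 and 358 FPKM in Tmem173fl/fl and 327, 359 and 390 FPKM in Tmem173iΔmye tumors, with 5 of 6 tumors close together (log2 fold change -0.17, SE 0.23, unadjusted p = 0.476 and adjusted p = 0.859 from edgeR). Scd1 to Scd4 are close paralogs, and how reads that match several of them were counted is not given in the sources used here.

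Elovl6, which elongates palmitate, ranged from 7.60 to 12.2 FPKM. The Δ5 and Δ6 desaturase genes Fads1 and Fads2, which act on polyunsaturated fatty acids, ranged from 23.2 to 47.6 and from 83.5 to 165 FPKM. For both, Tmem173fl/fl replicates 1 and 3 were the lowest and replicate 2 the highest, with all 3 Tmem173iΔmye tumors between them. The length used for Fads2 was 1508 bases, against 3295 exon bases in GENCODE M21, and that for Fads1 3456 against 4812. The longer exons could change the counts as well as the length, so their effect on FPKM is not known.

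Without Tmem173fl/fl replicate 2, the log2 fold change was positive for 7 of the 8 fatty acid genes (median 0.19) and for 23 of all 31 genes, against 51.2% of all genes tested. This tumor was singled out because all 8 fatty acid genes were highest in it. Leaving it out was therefore bound to raise their fold changes, and the values of this fit are no test of a group difference. In that fit of 2 against 3 tumors, 5 of 31 genes had an unadjusted p under 0.05 by edgeR, against 6.5% of all genes tested, and 0 had an adjusted p under 0.05. Besides Tm7sf2 and Dhcr7 these were Scd1 (log2 fold change 0.70, unadjusted p = 0.0108), Fads1 (0.53, unadjusted p = 0.003) and Fads2 (0.40, unadjusted p = 0.0136), each higher in Tmem173iΔmye tumors. Of 6 proliferation markers, Mki67, Top2a and Bub1 were highest in that tumor, with Mki67 and Top2a at 40.3 and 43.4 FPKM against at most 25.9 and 32.5 FPKM elsewhere. Ccnb1, Cdk1 and Birc5 were highest in Tmem173iΔmye replicate 1, at 15.4, 16.0 and 22.2 FPKM against 13.0, 8.37 and 10.9 FPKM in Tmem173fl/fl replicate 2. The 6 markers summed to 124 FPKM in Tmem173fl/fl replicate 2 and to 56 to 118 FPKM elsewhere, and the 6 surface colonocyte markers to 248 FPKM against 405 to 740 FPKM. The part of these differences in the fatty acid genes was not tested.

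The 17 mevalonate and sterol genes were spread over more tumors. Tmem173iΔmye replicate 1 was the highest for 7 of them and Tmem173fl/fl replicate 2 for 6, or 41.2% and 35.3%, against 24.9% and 26.6% of all genes tested. Tmem173fl/fl replicate 3 was the lowest for 11 of 17 (64.7%, against 18.1% of all genes), among them Tm7sf2, Dhcr7 and Mvd. The spread on the log2 scale was larger among the Tmem173fl/fl tumors for 9 of these 17 genes and for 8 of 8 fatty acid genes, against 61.4% of all genes tested with no value of 0. All 8 fatty acid genes were highest in 1 tumor of that group, replicate 2, so their larger spread there is not a separate result. The plot of the tumor with the highest value shows where the 17 and the 8 genes were highest.

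**Figure D5:**
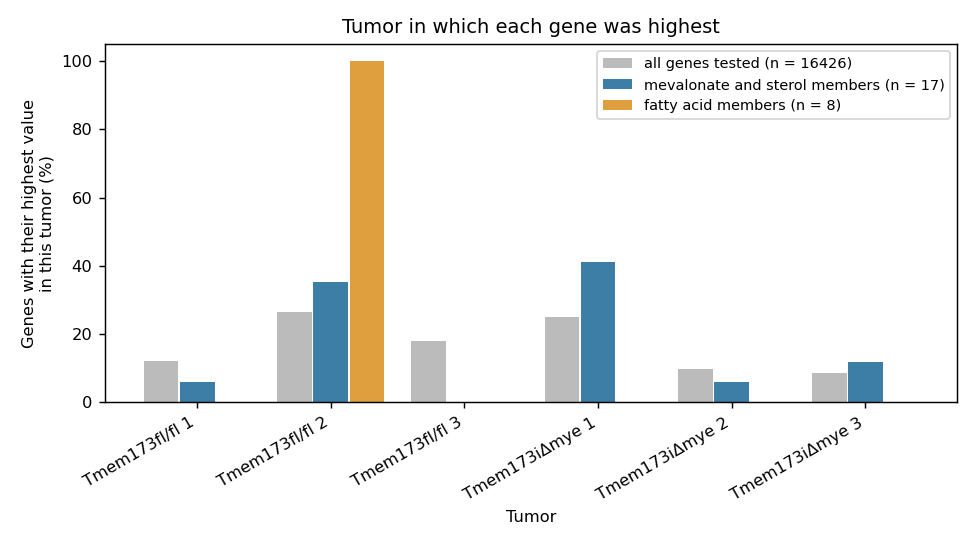
Percent of genes whose highest value lay in each tumor, for all 16426 genes tested (grey), the 17 mevalonate and sterol genes (blue) and the 8 fatty acid genes (orange). The orange bar stands at 100% in Tmem173fl/fl replicate 2 and at 0 elsewhere, and the blue bars are highest in Tmem173iΔmye replicate 1 (41.2%) and Tmem173fl/fl replicate 2 (35.3%).

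Stard4, a carrier that moves sterol between membranes, had 26.7, 32.9 and 20.0 FPKM in Tmem173fl/fl and 23.2, 22.2 and 26.7 FPKM in Tmem173iΔmye tumors. The Tmem173fl/fl tumors again held both extremes (log2 fold change -0.14, SE 0.19, unadjusted p = 0.467 and adjusted p = 0.858 from edgeR).

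A further 40 genes of sterol and fatty acid handling were listed alongside, of which 36 passed the filter on low values. By edgeR 5 of them had an unadjusted p under 0.05 (13.9%, against 6.14% of all genes tested), 2 higher and 3 lower, and 0 had an adjusted p under 0.05. Their median log2 fold change was 0.024, and the groups did not overlap for 7 of 36 (19.4%, against 12.5%).

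Cyp51, the lanosterol demethylase gene, had 40.6, 53.9 and 29.4 FPKM in Tmem173fl/fl and 47.1, 36.5 and 43.2 FPKM in Tmem173iΔmye tumors. Acss2, which activates acetate, had 3.91, 3.22 and 3.19 FPKM in Tmem173fl/fl and 3.81, 2.98 and 4.63 FPKM in Tmem173iΔmye tumors. Both overlapped between the groups, with the highest Cyp51 in Tmem173fl/fl replicate 2 and the highest Acss2 in Tmem173iΔmye replicate 3. The log2 fold changes were 0.033 and 0.14 (SE 0.22 and 0.19), with adjusted p-values of 0.976 and 0.860 from edgeR.

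Of the 3 genes lower in Tmem173iΔmye tumors at an unadjusted p under 0.05, 2 export cholesterol. Abca1, which exports cholesterol to lipid-poor apolipoprotein, had 11.1, 13.4 and 18.9 FPKM in Tmem173fl/fl and 7.66, 10.2 and 9.9 FPKM in Tmem173iΔmye tumors. Abcg1, which exports it to mature particles, had 9.35, 16.1 and 14.8 FPKM in Tmem173fl/fl and 8.11, 7.67 and 9.03 FPKM in Tmem173iΔmye tumors. Neither gene overlapped between the groups, though Tmem173fl/fl replicate 1 lay close to the Tmem173iΔmye tumors in both.

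The log2 fold change was -0.65 for Abca1 (SE 0.22, unadjusted p = 0.0179) and -0.70 for Abcg1 (SE 0.21, unadjusted p = 0.0106), each with an adjusted p of 0.742 from edgeR. For Abca1, the unadjusted p was 0.0637 without Tmem173fl/fl replicate 3 and 0.0603 without Tmem173iΔmye replicate 1, with log2 fold changes of -0.40 and -0.53. For Abcg1 it stayed under 0.05 in each of 17 alternatives, from 0.000559 to 0.0415. Macrophages use both transporters, and the 8 leukocyte markers summed to 164 to 351 FPKM in Tmem173fl/fl and 152 to 280 FPKM in Tmem173iΔmye tumors. Most of that sum was Lyz2, the gene that drives the Cre, at 123 to 307 and 123 to 241 FPKM. Cd68 was at 13.5 to 19.9 and 10.8 to 18.9 FPKM, and Csf1r at 12.3 to 13.9 and 10.3 to 17.5 FPKM. Each of the 8 markers overlapped between the groups, and their part in the result was not tested.

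The remaining 3 of the 5 act at other steps. Npc2, which hands cholesterol out of lysosomes, had 42.0, 32.6 and 38.8 FPKM in Tmem173fl/fl and 50, 48.5 and 45.2 FPKM in Tmem173iΔmye tumors, without overlap (log2 fold change 0.34, SE 0.14, unadjusted p = 0.0453 and adjusted p = 0.742 from edgeR). Gpam, which starts glycerolipid synthesis, had 4.36, 7.20 and 6.23 FPKM in Tmem173fl/fl and 2.88, 3.82 and 4.43 FPKM in Tmem173iΔmye tumors. Its groups overlapped slightly (log2 fold change -0.68, SE 0.24, unadjusted p = 0.0248 and adjusted p = 0.742 from edgeR).

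Scd3 was low, with 0.646, 1.33 and 0.533 FPKM in Tmem173fl/fl and 1.42, 1.69 and 1.84 FPKM in Tmem173iΔmye tumors. The groups did not overlap (log2 fold change 0.98, SE 0.38, unadjusted p = 0.0344 and adjusted p = 0.742 from edgeR). The unadjusted p of Npc2 exceeded 0.05 without any 1 of the tumors other than Tmem173fl/fl replicate 1, up to 0.119 by edgeR, and was 0.0689 with library totals alone and 0.092 with Y-linked reads as a covariate. That of Gpam did so without replicate 2 or 3 of Tmem173fl/fl or replicate 1 or 2 of Tmem173iΔmye, up to 0.0806. That of Scd3 did so without replicate 1 or 3 of Tmem173fl/fl or replicate 2 or 3 of Tmem173iΔmye, up to 0.0983.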

How the data were processed

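RNA of whole tumors from 3 Tmem173fl/fl and 3 Tmem173iΔmye mice was analysed. Per the submitters' processing notes, the authors used CASAVA 1.8, fastp, HISAT2 2.0.5, featureCounts 1.5.0-p3 and DESeq2 1.20.0 with GRCm38. They deposited raw read counts per gene and FPKM values. The deposited FPKM equal the counts divided by gene length, median-of-ratios size factors and the geometric mean of the totals, to within a relative difference of 5e-07. The same table holds the authors' group means, fold changes and p-values, which were not used.

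The quasi-likelihood test of edgeR 4.0.16 under R 4.3.3 was applied to the counts of the 16426 genes whose mean FPKM reached 0.5. Libraries were scaled by TMM, the model held the group alone, and p-values were adjusted by Benjamini and Hochberg's method. The SE was taken as the size of the log2 fold change over the root of its F statistic, and fold changes are Tmem173iΔmye over Tmem173fl/fl. Overlap between groups was read from TMM-scaled counts. Alternatives were DESeq2 1.42.0, limma 3.58.1 (voom, or log2(FPKM + 1) and log2(FPKM + 0.1)), other scalings and filters, Y-linked reads as a covariate, the replicate number as a block, and each tumor left out. The test scripts were run on simulated counts first.

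The 31 genes, the further lists and the tests were chosen with earlier results of these data known. Values in every tumor are given for genes of the 31 with an unadjusted p under 0.05 or groups that do not overlap, the 2 with the largest fold change of each role, and the rate-setting enzymes and regulators. Of the 40 further genes, Cyp51, Acss2 and those with an unadjusted p under 0.05 are given so, and some others the rule names are not reported here. The replicates are tumors labelled as separate samples, 1 number each. The p-values of edgeR weigh the group difference against the spread between these samples, which is estimated partly from the other genes tested.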

Additional observations from a re-analysis of the deposited data

How the results depend on the processing

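The count of the 31 genes with an adjusted p under 0.05 was 0 under each of 17 alternatives. The count at an unadjusted p under 0.05 was 2 in most, and 0 to 5 with each tumor left out. It was 0 without Tmem173fl/fl replicate 3 and without Tmem173iΔmye replicate 3, 1 without Tmem173iΔmye replicate 2 and 5 without Tmem173fl/fl replicate 2. Over all genes tested, the counts of these fits were 535, 925, 794 and 1067 in that order. They were 1665 without Tmem173fl/fl replicate 1 and 575 without Tmem173iΔmye replicate 1, so the background moved as well. Leaving out each tumor also gave 4 to 8 genes of the 31 without overlap (against 18.7% to 31.2% of all genes tested) and 10 to 23 genes above 0 (against 46.9% to 51.2%). Of the further genes, 1 to 5 had an unadjusted p under 0.05 in these fits, against 535 to 1665 of all genes tested. With no filter on low values 8 did so, against 1741 of 30939 genes. The cause was not tested. Whether the replicate numbers mark pairs is not known from the labels. Across genes, the correlation of deviations was 0.315, 0.00846 and 0.154 for the tumors numbered 1, 2 and 3 (mean 0.159). Its mean was -0.0793 for tumors with different numbers, so these values do not settle the question. Y-linked reads were alike in the tumors numbered 1 and in those numbered 3, but not in those numbered 2. The part of sex in the correlations was not tested. With the replicate block, 4 of the 31 (Dhcr7, Mvd, Srebf1 and Tm7sf2, with unadjusted p-values of 0.0308, 0.0434, 0.0366 and 0.027 from edgeR) had an unadjusted p under 0.05, against 1504 of all genes and 1008 without it, and 0 had an adjusted p under 0.05. With Y-linked reads as a covariate the count was 2, against 553 of all genes.

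Of the fold changes of 22 named genes under 17 alternatives, 326 values kept their direction and side of an unadjusted p of 0.05. A further 23 kept their direction but were no longer under it, 6 came under it, and 19 turned direction. The direction turned for Sqle with no filter (0.0079), upper quartile scaling (0.0011), limma with pseudocounts of 1 and 0.1 (0.0007 and 0.0009), the replicate block (0.0003) and Y-linked reads (0.03), and for Fasn with Y-linked reads (0.082). With each tumor left out, the log2 fold change ranged from -0.10 to 0.57 for Pmvk, from -0.092 to 0.12 for Sqle, from -0.33 to 0.012 for Srebf2, from -0.36 to 0.22 for Acaca, from -0.38 to 0.15 for Fasn, from -0.31 to 0.083 for Scd2, from -0.31 to 0.031 for Stard4, from -0.16 to 0.26 for Cyp51 and from -0.022 to 0.29 for Acss2. It kept its direction for Hmgcs1 (-0.28 to -0.020), Insig1 (-0.28 to -0.11) and Srebf1 (-0.47 to -0.20). The lowest count of any of the 31 genes in a tumor was 133, so none was near 0 at this depth.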
